A study of Arabidopsis thaliana with 4 samples.

Results

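WRKY transcription factors were examined in seeds that were held back from germination with abscisic acid (ABA), in wild type and in a mutant of the family member WRKY43. A gene was taken as a member if its current symbol is WRKY followed by a number and if a probe set of the array is paired with that gene alone. Of 67 genes with such a symbol in the reference annotation TAIR10.1, 7 met both conditions, out of 16411 genes with a probe set of their own. They are WRKY6, WRKY20, WRKY22, WRKY29, WRKY41, WRKY42 and WRKY47, each with 1 probe set. A further 3 probe sets are paired with a WRKY gene and a second gene together and were not used. Another 5 genes carry a WRKY number only as a synonym, and 0 of their probe sets are paired with a single gene. The levels of the other 60 WRKY genes, WRKY43 (AT2G46130) among them, were not analysed here.

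The 4 samples were seeds of Arabidopsis thaliana, from the accession Ler-0 (wild type, 2 biological replicates) and of the mutant wrky43-1 (2 biological replicates). Both groups received the same treatment, in which 10 mg of dry seeds lay for 4 days in liquid medium (0.5 MS, a plant culture medium) with 2 µM ABA. The mutant is represented by a single line, and the sources used here do not give the kind of lesion. Since WRKY43 itself had no probe set of its own among those used here, the mutated gene offered no check of the labels.

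WRKY factors are plant transcription factors named for a stretch of amino acids in their DNA-binding domain, which also holds a zinc finger and recognises a short promoter element called the W box. The family is divided by the number of WRKY domains and the type of zinc finger into groups I, II (with subgroups IIa to IIe) and III, and its members act in defence, senescence, nutrient supply and ABA responses, many of them on the genes of other WRKY factors. In seeds, several members modulate how strongly ABA holds back germination. WRKY43 belongs to subgroup IIc. The measured genes belong to group I (WRKY20), subgroup IIb (WRKY6, WRKY42 and WRKY47), subgroup IIe (WRKY22 and WRKY29) and group III (WRKY41), so that no member of WRKY43's own subgroup was measured.

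WRKY47, WRKY41, WRKY20 and WRKY6 read lower on both wrky43-1 arrays than on both wild-type arrays, at 71.2%, 75.5%, 75.7% and 77.7% of the wild-type level, while WRKY22, WRKY29 and WRKY42 overlapped between the genotypes. No WRKY gene passed the threshold of 0.05 on the adjusted p in limma (0 of 7, against 0% of all 38408 probe sets called lower and 0.0026% called higher). At an unadjusted limma p under 0.05, WRKY47 and WRKY20 were lower, 2 of 7, against 6.93% of all probe sets and 6.11% of the probe sets with 1 gene, and 0 of 7 were higher, against 9.05% and 5.53%. The groups did not overlap, in the lower direction, in 4 of 7, against 23.6% of all probe sets and 25% of those with 1 gene. In the higher direction the count was 0 of 7, against 24.5% and 21.7%. In mean, 5 of 7 read lower, against 49.8% of all probe sets and 52.6% of those with 1 gene, and 2 of 7 read higher, against 50.2% and 47.4%. The median log2 difference of the 7 genes was -0.36, and that of all 16411 genes was -0.015. A share of 7 genes is coarse, and the list was not tested as a list. In bulk seed RNA, fewer cells that express a gene and less of its RNA per cell cannot be told apart.

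**Figure D1:**
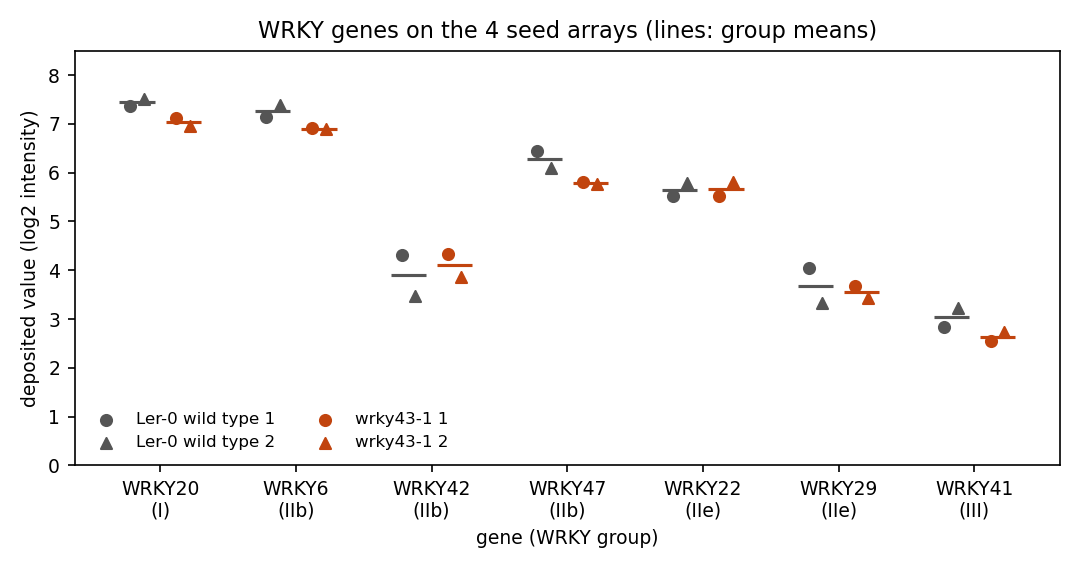
Deposited values on the log2 scale (vertical axis) of the 7 WRKY genes (horizontal axis, with their WRKY group) on each of the 4 arrays, wild type in grey and wrky43-1 in orange, circles for replicate 1, triangles for replicate 2 and lines for the group means. The wrky43-1 points lie below both wild-type points for WRKY20, WRKY6, WRKY47 and WRKY41, while the points of WRKY42, WRKY22 and WRKY29 mix. Heights of different genes are not comparable, since each comes from its own probe set.

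Group I was represented by WRKY20 (AT4G26640, probe set 13489992), a member with both an N-terminal and a C-terminal WRKY domain. Its log2 intensity was 7.36 and 7.52 in wild type and 7.13 and 6.95 in wrky43-1. Both wrky43-1 values lay below both wild-type values, and the 0.23 between the nearest values of the genotypes was wider than the distance between replicates (0.17 in wild type and 0.18 in wrky43-1). The means were 7.44 ± 0.12 and 7.04 ± 0.13 (SD, n = 2 each), a log2 difference of -0.40 (SE 0.14, 95% interval -0.78 to -0.02, limma unadjusted p = 0.0422, adjusted p = 0.295). Of all genes, 6.22% had a difference as low or lower.

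Subgroup IIb held 3 of the measured genes, which are known from nutrient and stress responses. WRKY6 (AT1G62300, probe set 13382260) represses the phosphate exporter gene PHO1 and is known as a positive factor of ABA signalling in germinating seeds. It read 7.15 and 7.38 in wild type and 6.92 and 6.89 in wrky43-1. The wrky43-1 replicates were nearly equal, and the step of 0.24 down to them from the lower wild-type value was about as wide as the 0.23 between the wild-type replicates. The log2 difference was -0.36 (SE 0.14, 95% interval -0.73 to 0.01, limma unadjusted p = 0.0530, adjusted p = 0.317), so the interval just reached 0.

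WRKY47 (AT4G01720, probe set 13464517), which has been linked to cell wall modification under aluminium stress, had the lowest difference of the 7. It read 6.45 and 6.10 in wild type and 5.81 and 5.76 in wrky43-1. Again the wrky43-1 arrays lay close together below both wild-type arrays, with 0.29 between the nearest values of the genotypes and 0.34 between the wild-type replicates. The means of 6.27 ± 0.24 and 5.78 ± 0.035 (SD, n = 2 each) differed by -0.49 on the log2 scale (SE 0.16, 95% interval -0.93 to -0.05, limma unadjusted p = 0.0359, adjusted p = 0.283). The wild-type level was thus 1.41 times the wrky43-1 level, and 3.44% of all genes had a difference as low or lower.

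WRKY42 (AT4G04450, probe set 13465640), which like WRKY6 represses PHO1 and also activates the phosphate importer gene PHT1;1, read 4.32 and 3.48 in wild type and 4.34 and 3.86 in wrky43-1. Its wild-type replicates were 0.84 apart, the widest distance among the 7 genes, and enclosed 1 of the wrky43-1 values. The log2 difference of 0.19 (SE 0.35) had a 95% interval of -0.74 to 1.13, from 0.598 to 2.19 times the wild-type level (limma adjusted p = 0.832). A difference of the size seen for WRKY6 was therefore neither shown nor excluded for WRKY42. Whether the 3 genes of subgroup IIb differ from each other in their response was not tested.

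Group III was represented by WRKY41 (AT4G11070, probe set 13467276), which promotes seed dormancy through the gene of the ABA-response regulator ABI3. It read 2.84 and 3.23 in wild type and 2.54 and 2.73 in wrky43-1. The wrky43-1 values were both the lower ones, but only 0.11 separated the genotypes while the wild-type replicates were 0.39 apart. The log2 difference was -0.40 (SE 0.19, 95% interval -0.91 to 0.10, limma unadjusted p = 0.0915, adjusted p = 0.388). Its values lay low on the arrays, between the 15.8th and the 33.9th percentile of the values of an array. No detection calls were used here, so whether these values lie above background is unknown, and a value near background shows only part of a true difference.

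Subgroup IIe held WRKY22 and WRKY29, which act downstream of the MAP kinase cascade that answers bacterial flagellin. WRKY22 (AT4G01250, probe set 13480486) read 5.52 and 5.78 in wild type and 5.52 and 5.80 in wrky43-1. The pairs of values were almost the same in both genotypes, with a log2 difference of 0.01 (SE 0.17, limma adjusted p = 0.987), whose sign turned with quantile normalization (-0.08) or with array medians made equal (-0.06). Its 95% interval of -0.46 to 0.48 left room for 0.727 to 1.39 times the wild-type level, so it was not shown to be equal. WRKY29 (AT4G23550, probe set 13472446) read 4.04 and 3.33 in wild type and 3.67 and 3.44 in wrky43-1. Both wrky43-1 values lay within the wild-type range, and the log2 difference of -0.13 (SE 0.28, 95% interval -0.88 to 0.62) did not pass (limma adjusted p = 0.867).

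**Figure D2:**
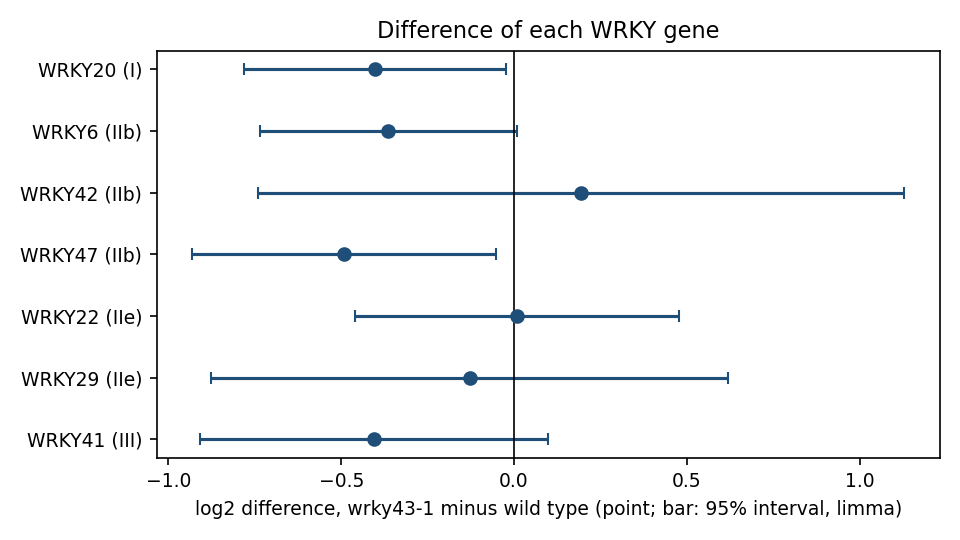
Log2 difference of each WRKY gene, wrky43-1 minus wild type (horizontal axis; points), with the 95% interval from limma (bars) over 2 arrays a genotype. The intervals of WRKY47 and WRKY20 end just below 0, those of WRKY6 and WRKY41 reach it, and WRKY42 has the widest, from -0.74 to 1.13.

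The precision differed among the 7 genes. The SE was 0.14 for WRKY6 and WRKY20, 0.16 to 0.19 for WRKY47, WRKY22 and WRKY41, 0.28 for WRKY29 and 0.35 for WRKY42. Whichever of the 4 arrays was left out, the difference stayed negative for WRKY6, WRKY20, WRKY41 and WRKY47. This had to be so, since both wrky43-1 values of these genes lie below both wild-type values. The sign turned for WRKY22, WRKY29 and WRKY42. Single arrays moved several of the values. Without wild-type replicate 2 the difference of WRKY41 was -0.21, and that of WRKY6 was -0.25. Without wild-type replicate 1 that of WRKY47 was -0.32 and that of WRKY42 was 0.61.

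Gene length and the WRKY differences were set side by side, because over all genes the longer ones read lower in wrky43-1. WRKY20, of 4880 bp, falls among the 1432 genes of 4000 to 8000 bp, whose median log2 difference was -0.18 and of which 53.2% lay lower with no overlap of the groups. Most genes of this length thus read lower with no overlap, as WRKY20 did. WRKY6 (2926 bp), WRKY42 (3219 bp) and WRKY47 (3751 bp) fall among the 6146 genes of 2000 to 4000 bp, with a median of -0.02 and 26.9% lower with no overlap. WRKY6 and WRKY47 read above the median level of these genes, which was 5.28. Of the 3073 genes of this length above that level, 32.2% lay lower with no overlap. WRKY41 (1697 bp), WRKY22 (1720 bp) and WRKY29 (1736 bp) fall among the 5602 genes of 1000 to 2000 bp, with a median of 0.03 and 17.3% lower with no overlap. With a straight-line trend on log10 length removed, the log2 differences were -0.43 for WRKY47, -0.40 for WRKY41, -0.33 for WRKY20 and -0.32 for WRKY6. That line takes off only 0.08 at the length of WRKY20, less than the median of its length bin. The part of gene length in the difference of WRKY20 was not tested.

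**Figure D3:**
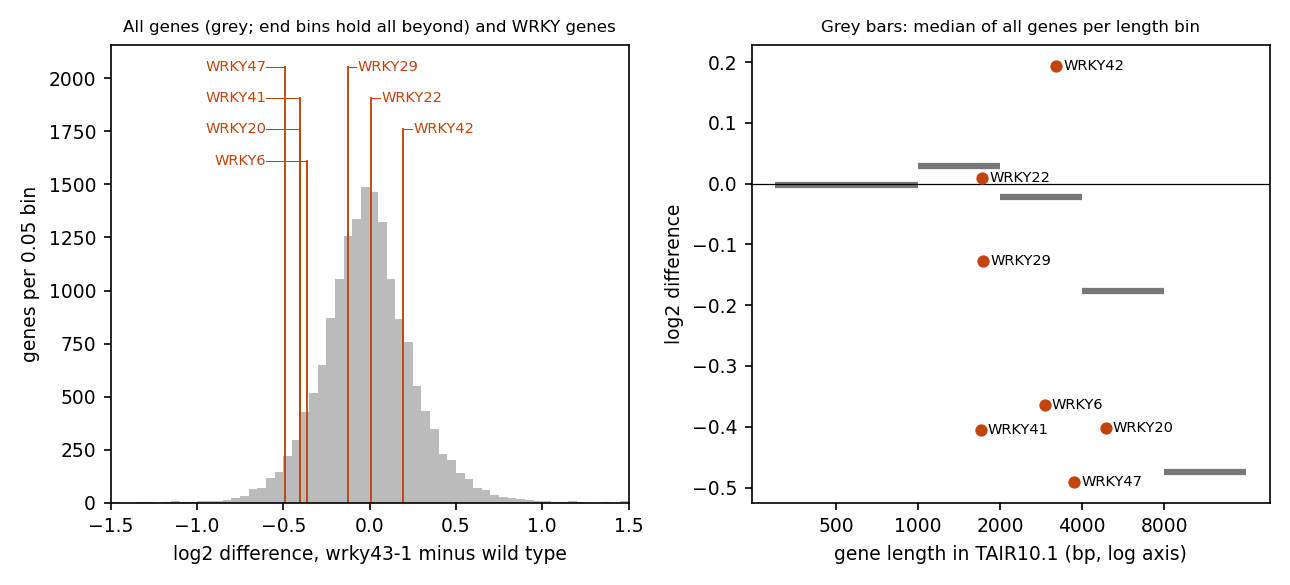
Left, number of genes (vertical axis, of 16411) by log2 difference, wrky43-1 minus wild type (horizontal axis, bins of 0.05), with the 7 WRKY genes as orange lines. Right, log2 difference (vertical axis) of the WRKY genes (points) by gene length in bp (log axis), with the median of all genes in each length bin as grey bars. WRKY47, WRKY41, WRKY20 and WRKY6 lie in the lower flank of the distribution, and WRKY20 is the one in the bin with a median of -0.18.

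Most of the measured genes, 6 of 7, lie on chromosome 4, and WRKY6 lies on chromosome 1, so none shares the chromosome of WRKY43, which is on chromosome 2. The 2433 genes of chromosome 4 had a median log2 difference of -0.015 and 24% lower with no overlap, close to the values of all genes. Of the 14 protein-coding genes directly next to a WRKY gene in TAIR10.1, 11 had a probe set of their own. In mean, 6 read lower and 5 higher, against 52.6% and 47.4% of the probe sets with 1 gene. At an unadjusted limma p under 0.05 there were 0, against 6.11% lower and 5.53% higher. With no overlap of the groups 3 were lower and 2 higher, against 25% and 21.7%. Both neighbours of WRKY6 read lower with no overlap of the groups. AT1G62305 read 5.58 and 5.26 in wild type against 4.88 and 5.06 in wrky43-1 (log2 difference -0.45, SE 0.17), and AT1G62290 had a log2 difference of -0.29 (SE 0.12). The -0.36 of WRKY6 lay between those of its neighbours. AT4G01240, next to WRKY22, also read lower with no overlap (log2 difference -0.16, SE 0.12). The neighbours of WRKY47 overlapped between the genotypes, at -0.04 for CRK and 0.10 for AT4G01730. Next to WRKY41, 3xHMG-box1, a gene of the HMG-box family of chromatin proteins, read in the opposite direction, with 4.34 and 4.90 in wild type against 5.01 and 5.37 in wrky43-1 (log2 difference 0.57, SE 0.25, limma adjusted p = 0.370). That difference was 0.29 without wild-type replicate 1 and 0.86 without wild-type replicate 2. The neighbour of WRKY20, AT4G26650, read 7.46 and 7.43 against 7.51 and 7.61, slightly higher in wrky43-1 with no overlap (0.12, SE 0.12).

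Proteins with a VQ motif bind WRKY factors and adjust their activity. Of 7 such genes found in the reference by name or synonym, IKU1 (HAIKU1, AT2G35230) was measured, a regulator of endosperm growth and seed size that acts in one pathway with the WRKY factor MINI3. IKU1 read 9.03 and 9.24 in wild type and 8.41 and 8.48 in wrky43-1. The genotypes lay 0.55 apart at their nearest values, wider than the 0.22 between the wild-type replicates. The log2 difference of -0.69 (SE 0.14, 95% interval -1.06 to -0.32), 61.9% of the wild-type level, was lower than that of any of the 7 WRKY genes, with a limma unadjusted p of 0.00589 and an adjusted p of 0.189, so it did not pass either. IKU1 is 2175 bp long, in the bin with a median of -0.02. Of 51 genes of the MAP kinase cascade and of 16 genes described as bound or controlled by WRKY factors, among them PHO1, RAV1, ABI3, ABI4 and ABI5, 0 had a probe set of their own, so the known targets of the measured WRKY genes were not examined.

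Other families of transcription factors were counted by symbol alone, a family name followed by a number. Members under another name or under a locus code are not in these counts. Of the 16574 probe sets matched to TAIR10.1, 14800 carry a locus code only. Of 17 bZIP genes 8 read lower and 9 higher (median log2 difference 0.03), with 5 lower and 4 higher without overlap of the groups. Of 64 AGAMOUS-like MADS-box genes 33 read lower and 31 higher (median -0.04), with 13 lower and 11 higher without overlap. Of 6 genes with a bHLH symbol 2 read lower and 4 higher (median 0.05), with 0 lower and 2 higher without overlap. NAC014 (0.08) and DREB2C (-0.07), the only measured genes with a NAC or an ERF or DREB symbol, overlapped between the genotypes. With a MYB symbol, 0 genes were measured. Beside these, the WRKY genes had 5 lower and 2 higher, with 4 and 0 without overlap. The difference between the families was not tested.

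The genes whose 4 values ran most like those of a WRKY gene were found by the Euclidean distance between values centred on the gene's own mean, over the 4 arrays and among genes with a symbol and a level within 2 log2 units. For WRKY6 they were PRAF1 (distance 0.0351, values 6.89 and 7.07 against 6.61 and 6.59) and TRM15 (0.0859). For WRKY20 they were SEC5A, a subunit of the exocyst that tethers secretory vesicles (distance 0.0755, values 7.43 and 7.49 against 7.16 and 6.99), and ATATH8 (0.0904). For WRKY47 they were VPS9B (0.0761) and the myosin gene XIJ (0.0879), and for WRKY41 B70 (0.0540) and cdc2cAt (0.101). Of these 8 genes 5 are longer than 4000 bp, against 14% of all genes with a symbol. The 14% covers genes of every level and direction, so the 2 shares are not alike. The 8 were picked by level and by likeness to WRKY genes that read lower with no overlap. Of all genes 25.1% read lower with no overlap, and of those of 4000 to 8000 bp 53.2%. The part of gene length in the likeness was not tested. The names describe these 4 arrays and no more.

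The tissue label was set against marker genes. Of 18 seed markers 4 were measured, PAP85, M17, OLEO3 and AT1G03890, with a mean log2 value of 9.42 and 9.39 in wild type and 8.88 and 8.90 in wrky43-1. All 4 read lower in wrky43-1 with no overlap of the groups, against 23.6% of all probe sets and 25% of those with 1 gene. Their log2 differences ran from -0.09 for OLEO3 to -1.29 for AT1G03890. In limma 0 passed over all probe sets. At an unadjusted limma p under 0.05, 2 were lower, against 6.93% of all probe sets and 6.11% of those with 1 gene. Of 4 leaf markers 2 were measured. LHCB4.1, of the light-harvesting antenna, read 8.86 and 8.99 in wild type against 8.47 and 8.69 in wrky43-1, lower with no overlap (log2 difference -0.35). PRK, of the Calvin cycle, read 3.53 and 3.92 against 5.05 and 3.74, and its difference of 0.67 was 0.02 without wrky43-1 replicate 1. Of 3 root hair markers 2 were measured, EXPA7 (-0.21) and EXPA18 (0.18), with means of 2.87 and 3.10 in wild type against 3.03 and 2.90. Lower with no overlap were thus all 4 seed markers, 1 of 2 leaf markers (LHCB4.1) and 1 of 2 root hair markers (EXPA7). The share among the probe sets with 1 gene was 25%. Values of EXPA7 lay between the 18.4th and the 27.6th percentile of an array, and those of EXPA18 between the 22.8th and the 33.9th. Whether these root hair values lie above background is unknown. PRK and EXPA18 overlapped between the genotypes and were higher in mean. The part of the marker genes in the WRKY differences was not tested.

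**Figure D4:**
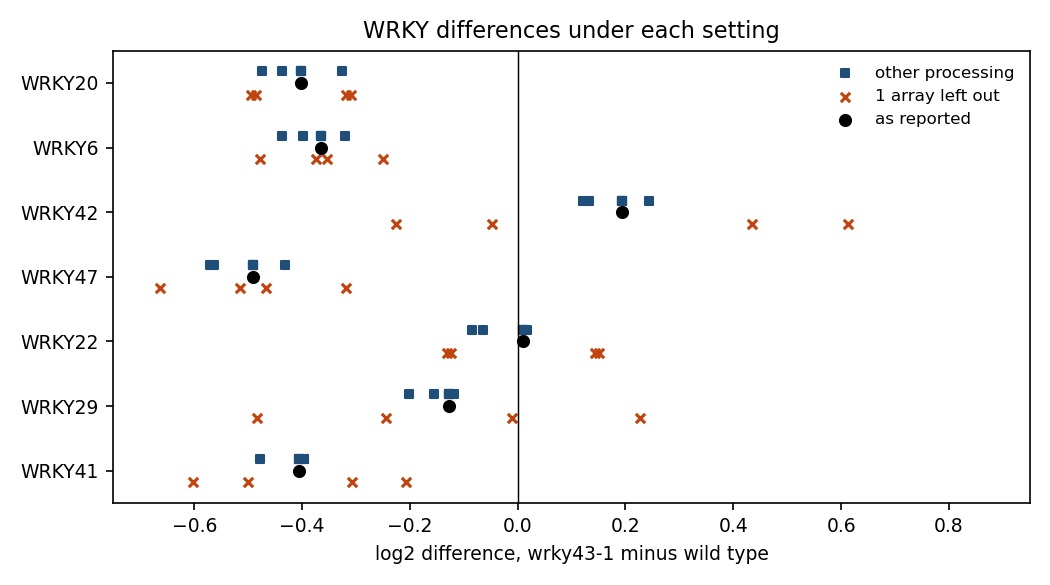
Log2 difference of each WRKY gene (horizontal axis), wrky43-1 minus wild type, as reported (black), under other processing (blue squares) and with 1 of the 4 arrays left out (orange crosses). WRKY6, WRKY20, WRKY41 and WRKY47 stay below 0 at every point shown, while the crosses of WRKY22, WRKY29 and WRKY42 lie on both sides of 0. The crosses of WRKY6, WRKY20, WRKY41 and WRKY47 could not lie above 0, since the groups of these genes do not overlap.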

How the data were processed

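The deposited table holds log2 values of 38408 probe sets on 4 arrays. The authors' scale is not stated and was read as log2 from the range of 1.18 to 14.27. Per the labels' protocols, biotin was used to label total RNA. The sources used here give neither the normalization nor the probe set summary. Array medians were 4.34 in both wild-type samples and 4.43 and 4.40 in wrky43-1, and values were used as deposited. The number of arrays limits the precision. Genes were named through the platform annotation and TAIR10.1: 16722 probe sets had 1 gene (16574 matched), 759 several and 20927 none in the table used here. Gene length is the span in TAIR10.1, introns included. All 7 WRKY probe sets lay, by number, among probe sets of their own chromosome (20 of the 20 nearest), and 0 had values identical to another.

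Genotypes were compared with limma 3.58.1 in R 4.3.3 (lmFit, eBayes), two-sided, with p-values adjusted over all probe sets by Benjamini-Hochberg, 2 residual and 2.34 prior degrees of freedom. The fit was tested on simulated data. An exact permutation test of 2 against 2 arrays cannot go below p = 0.333 and was not used. All members were named. The lists beside them hold genes chosen by locus code (seed, leaf and root hair markers, WRKY targets) or by symbol and synonym (VQ, MAP kinase and other families), and the members measured on them are counted in the report. WRKY groups are from general knowledge, since no protein sequences were used here. Members and lists were chosen with earlier results of these data known. Alternatives were quantile normalization, centring, a filter on low probe sets, an intensity trend, array weights, the replicate block and leaving out each array. Removal of the length trend and the restriction to probe sets with 1 gene were added after seeing the data.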

Additional observations from a re-analysis of the deposited data

How the results depend on the processing

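In each setting run with an adjusted limma p, 0 WRKY genes passed. In the fit as reported 2, WRKY47 and WRKY20, had an unadjusted p under 0.05. WRKY6 joined them (3) with quantile normalization, centring, the low filter, the intensity trend and among probe sets with 1 gene. With the replicate block WRKY47 alone was left (1), without wild-type replicate 1 it was WRKY41 (1), without wild-type replicate 2 WRKY47 (1), and without either wrky43-1 array there were 0. The median log2 difference of the WRKY genes was -0.437 to -0.246 over all settings. WRKY22 turned to -0.084 with quantile normalization and to -0.064 with array medians made equal. Leaving out each array in turn, which leaves 1 residual degree of freedom and assumes that the lone array varies like the other group, gave -0.132 to 0.151 for WRKY22, -0.483 to 0.227 for WRKY29 and -0.225 to 0.613 for WRKY42. The lower ones kept their sign, as genes without overlap of the groups must. Their differences were -0.478 to -0.249 for WRKY6, -0.663 to -0.319 for WRKY47, -0.602 to -0.207 for WRKY41 and -0.494 to -0.31 for WRKY20. Of the other genes, the same gave -0.25 to 0.171 for CRK, -0.1 to 0.29 for AT4G01730, -0.242 to 0.495 for AT4G04423, -0.155 to 0.115 for AT4G04460, -0.156 to 0.205 for GH9B15 (-0.049 with centring) and -0.05 to 0.412 for EXPA18. Probe sets higher in wrky43-1 numbered 1 as reported, 2 with centring, 74 with an intensity trend, 0 with the replicate block, 12 among those with 1 gene and 0 to 0 without single arrays. Those lower numbered 0, 30 with an intensity trend and 6 among those with 1 gene. AT1G03890 passed among probe sets with 1 gene (adjusted p = 0.0421, range over its settings 0.0421 to 0.482), and IKU1 did not pass in any setting run (0.0606 to 0.485). The cause was not tested.

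The replicate numbers are shared between the genotypes but are not said to mark a shared batch, and the distances between replicates 1 and 2 of each genotype correlated across probe sets at -0.026. With the replicate block the adjusted limma p was 0.339 for WRKY47, 0.4 for WRKY6, 0.397 for WRKY20 and 0.361 for WRKY41, and no WRKY call changed. Over all settings the adjusted p ranged from 0.214 to 0.522 for WRKY47, 0.217 to 0.642 for WRKY6, 0.189 to 0.601 for WRKY20 and 0.317 to 0.729 for WRKY41. Without the lowest 30 percent of probe sets WRKY41 was not among those tested. Averaging a gene's probe sets was not run, since each WRKY gene has 1.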
